A study of Mus musculus with 15 samples.

Results

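The comparison between SOX9-Halo_budding and Halo-NLS organoids asked which genes responded to SOX9 before the shape of the organoids changed. It covers 6 of the 15 RNA-seq libraries of the series, 3 of SOX9-Halo_budding and 3 of Halo-NLS, and every gene that was counted in them. Both lines are mouse small intestinal organoids, grown from the crypts of adult female mice, and both were transduced with a lentivirus and selected with puromycin. In SOX9-Halo_budding, the weak L30 promoter drives mouse Sox9 fused to HaloTag and V5, and in Halo-NLS the same promoter drives V5-tagged HaloTag with a nuclear localization signal. Each line is 1 stably transduced population, each library pooled several wells of that line, and the SOX9-Halo_budding organoids had been passaged a few times more than the Halo-NLS organoids, so the construct, the line and its passage cannot be told apart. The study made organoids from C57BL/6J mice and from LGR5::DTR-EGFP mice bred with them. It describes stable SOX9-Halo and SOX9-mEGFP lines of wild-type background, and also a budding SOX9-Halo line from LGR5::DTR-EGFP mice. The SOX9-Halo line that turned from budding to spheroid is given as wild type. Lines of wild-type background were also transduced again with a tagged histone. Whether the sequenced budding samples had this, and the genotype of each sequenced line, are not stated outright in the sources used here. A second line with SOX9 fused to mEGFP and a budding shape (SOX9-mEGFP_budding, 3 libraries), at the passage of Halo-NLS, was used to see which differences also separated the SOX9-Halo line from another SOX9 line.

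The intestinal epithelium is renewed from stem cells at the crypt base. Wnt ligands, bound by Frizzled receptors and LRP co-receptors and boosted by R-spondins through LGR receptors, keep these cells dividing, while Notch and BMP signals set how many daughters become secretory cells (Paneth, goblet, enteroendocrine, tuft) or absorptive enterocytes. SOX9 is a transcription factor of the SRY-related HMG-box family that binds DNA in the minor groove. It is a Wnt target in the crypt, is made in stem and Paneth cells, and is needed for Paneth cells to form.

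Reads counted to genes ranged from 29136361 to 40559766 per library, and 24214 to 40375 genes had at least 1 read, with the highest number in Halo-NLS library 3. Epithelial genes were abundant in each of the 6 libraries, with 24546 to 43449 reads for Epcam and 26084 to 51234 for Vil1. Reads of 3 markers of other cells were at or near 0, with 0 to 17 for Ptprc (immune cells), 0 to 10 for Cdh5 (endothelium) and 0 to 10 for Col3a1 (mesenchyme). The highest value of each was in Halo-NLS library 3, and the sums of the marker lists were 3.04 to 6.97 CPM for immune, 12.2 to 16.2 for mesenchymal and 54.5 to 81.8 for endothelial and neural genes in Halo-NLS, against 3.31 to 4.53, 5.52 to 12.3 and 50.7 to 60 in SOX9-Halo_budding. The libraries also differed in their balance of GC-rich and long transcripts. Across genes, the deviation of a library from the mean of the 9 budding and control libraries correlated with transcript GC content at a Spearman's rho of -0.129, 0.606 and 0.41 in Halo-NLS libraries 1, 2 and 3 and of -0.563, 0.313 and -0.457 in those of SOX9-Halo_budding. Genes are not independent replicates, and the part of this shift in each difference was not tested, but each main value was also computed after a smooth trend on GC content and transcript length had been removed from each library.

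Sox9 itself was counted at 515, 769 and 306 normalized reads in Halo-NLS and at 1336, 10538 and 6838 in SOX9-Halo_budding. The groups did not overlap, but SOX9-Halo_budding library 1 stood well below the others of its group. The log2 fold change was 3.56 (SE 0.61, edgeR quasi-likelihood test on 15 libraries, adjusted p = 0.0026) and 3.24 without the GC and length trends. The call was lost without Halo-NLS library 3 (adjusted p = 0.017, log2 fold change 3.28) or without SOX9-Halo_budding library 3 (adjusted p = 0.011, 3.48). In SOX9-mEGFP_budding the values were 11368, 11086 and 6487, and the difference between the SOX9 lines was not called (log2 -0.63, SE 0.55). Reads from the transgene and from the resident Sox9 gene on chromosome 11 were counted together.

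Of 17560 genes tested, 438 were higher and 221 lower in SOX9-Halo_budding, where a called gene has an adjusted p of at most 0.01, a change of at least 2-fold and an average of 10 or more normalized reads across the 15 libraries. These are 2.49% and 1.26% of the genes tested, 3.75% together. The 3 libraries of one group did not overlap with those of the other for the 659 called genes, and also for 29.7% of the genes tested. These counts rested strongly on the spread taken from the spheroid libraries and on single libraries. With the 6 compared libraries alone, 5 genes were higher and 0 lower, although 3765 of 15266 genes had an unadjusted p under 0.05, and DESeq2 on the 15 libraries gave 1176 higher and 426 lower. Leaving out 1 library at a time gave 125 to 1986 higher genes and 60 to 384 lower genes, and scaling by library size alone, which raised the median log2 fold change of the tested genes from 0.0094 to 0.31, gave 1068 higher and 109 lower. The transcripts of the genes that were higher were longer (median 4714 bases) and less GC-rich (47.7%) than those of the genes that were lower (2336 bases, 56.2%), with medians of 2684 bases and 50.2% over the genes tested. After the GC and length trends had been removed, 310 genes were higher and 256 lower, and 366 of the 659 calls were kept.

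Calls for 140 genes, 101 higher and 39 lower, were kept in each of the 6 fits that left out 1 library and in the fit without the GC and length trends. Their median transcript lengths were 4202 and 2267 bases. The genes described first belong to this set unless stated otherwise.

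Among called genes that averaged 100 or more normalized reads across the 6 libraries, with no overlap between the groups and a symbol other than a predicted-gene name, the 10 with the largest rises were Xist, Sdc2, Tcaf1, Cybrd1, Kcns3, Padi2, Rcn1, S100b, Tstd1 and Reg3b, by log2 fold changes from 11.44 to 3.94. Sdc2, which encodes the heparan sulfate proteoglycan syndecan 2, went from 0.0, 1.1 and 6.3 normalized reads to 221, 195 and 253 (log2 6.43, SE 0.49, adjusted p = 5.5e-06). Tcaf1, a regulator of TRP ion channels, had 3.9, 16.1 and 7.5 reads in Halo-NLS and 334, 378 and 656 in SOX9-Halo_budding (5.59, SE 0.42, adjusted p = 5.5e-06). Both genes were close to silent in the control and clearly read in each SOX9-Halo library. Cybrd1, the ferric reductase of the duodenal brush border, had 43.1, 39 and 12.6 reads against 1169, 2800.4 and 399 (5.52, SE 0.66, adjusted p = 2.5e-04). The calcium-binding protein genes S100b and Rcn1, the latter active in the endoplasmic reticulum, rose by 4.34 (SE 0.65) and 4.49 (SE 0.41) on the log2 scale. Padi2, a peptidylarginine deiminase, had 6.5, 3.4 and 11.3 reads against 139, 246 and 273 (4.94, SE 0.43, adjusted p = 2.6e-05). Kcns3, a subunit of voltage-gated potassium channels, rose by 4.95 (SE 0.83), and its call was lost without Halo-NLS library 3 (adjusted p = 0.011).

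By the same rule, the 10 genes with the largest falls were Aqp3, Igfbp4, Hs3st3b1, Cyba, Oplah, Smoc1, Renbp, Rcor2, Smad6 and Snph, by log2 fold changes from -4.90 to -2.70. Aqp3, a channel for water and glycerol, had 963, 1113 and 288 normalized reads in Halo-NLS and 37.4, 34.1 and 6.8 in SOX9-Halo_budding (-4.90, SE 0.70, adjusted p = 9.1e-04). Igfbp4, an insulin-like growth factor binding protein that marks crypt base stem cells, had 1612, 2022 and 2940.1 reads against 45.3, 129 and 139.5 (-4.39, SE 0.42, adjusted p = 3.7e-05). The highest SOX9-Halo value of Igfbp4 thus lay more than 10-fold below the lowest Halo-NLS value. Cyba, the p22 subunit of NADPH oxidases, had 1780.1, 1900.3 and 2778 reads against 166, 244 and 78.0 (-3.73, SE 0.44, adjusted p = 2.3e-04). Hs3st3b1, a heparan sulfate sulfotransferase, Oplah, the 5-oxoprolinase of the glutathione cycle, and Rcor2, a corepressor, had log2 fold changes of -4.10, -3.45 and -2.75. Rcor2 lies on chromosome 19, whose genes were lower as a group (described further on). Renbp lost its call without SOX9-Halo_budding library 1 (adjusted p = 0.011), and Snph lost it without any 1 of 3 libraries, Halo-NLS 2 and SOX9-Halo_budding 1 and 3 (adjusted p up to 0.02).

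**Figure D1:**
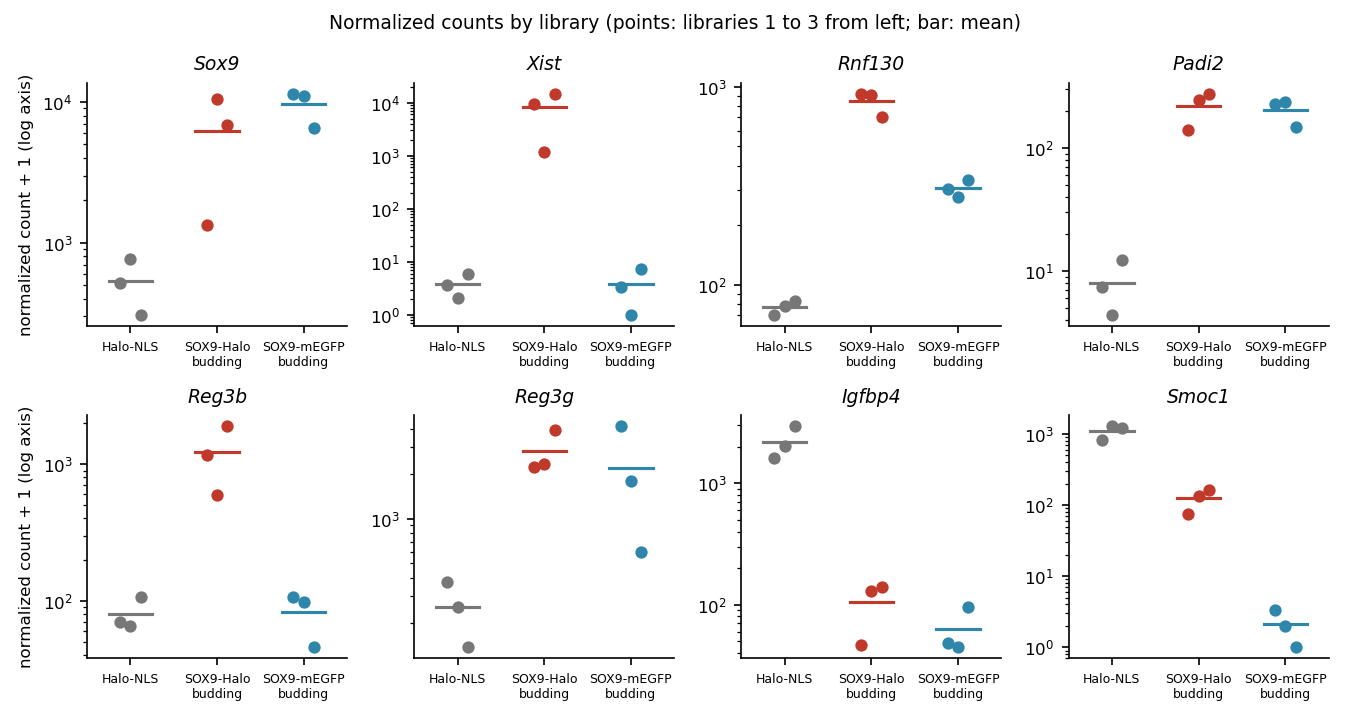
Normalized counts plus 1 on a log axis for 8 genes, with 1 point for each library of Halo-NLS, SOX9-Halo_budding and SOX9-mEGFP_budding and a bar at the mean of 3. Sox9, Padi2, Reg3g and Igfbp4 had overlapping or close values in the 2 SOX9 lines, while Xist and Reg3b were high in SOX9-Halo_budding alone of these 3 groups, and SOX9-mEGFP_budding was intermediate for Rnf130 and lowest for Smoc1.

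The second SOX9 line showed which of these differences were shared by both SOX9 lines. The comparisons with Halo-NLS share the same 3 control libraries, so the values of each are given side by side and the SOX9 lines were tested against each other. Padi2 had 228, 234 and 147 normalized reads in SOX9-mEGFP_budding, and Rcn1 had 680.3, 724 and 949.9, which differed from SOX9-Halo_budding by log2 values of 0.11 and 0.05 that were not called. Igfbp4 was also low there, at 47.4, 43.6 and 95 reads. Other genes set the SOX9-Halo line apart from both. Cybrd1 had 51.0, 27.0 and 21.8 reads in SOX9-mEGFP_budding, close to Halo-NLS, and was higher in SOX9-Halo_budding than there by 5.47 (adjusted p = 4.2e-04). Smoc1, a secreted calcium-binding matrix protein, had 832, 1286 and 1216 reads in Halo-NLS, 74.8, 133 and 162 in SOX9-Halo_budding and 2.4, 1.0 and 0.0 in SOX9-mEGFP_budding, so the SOX9-Halo line lay between the other lines.

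**Figure D2:**
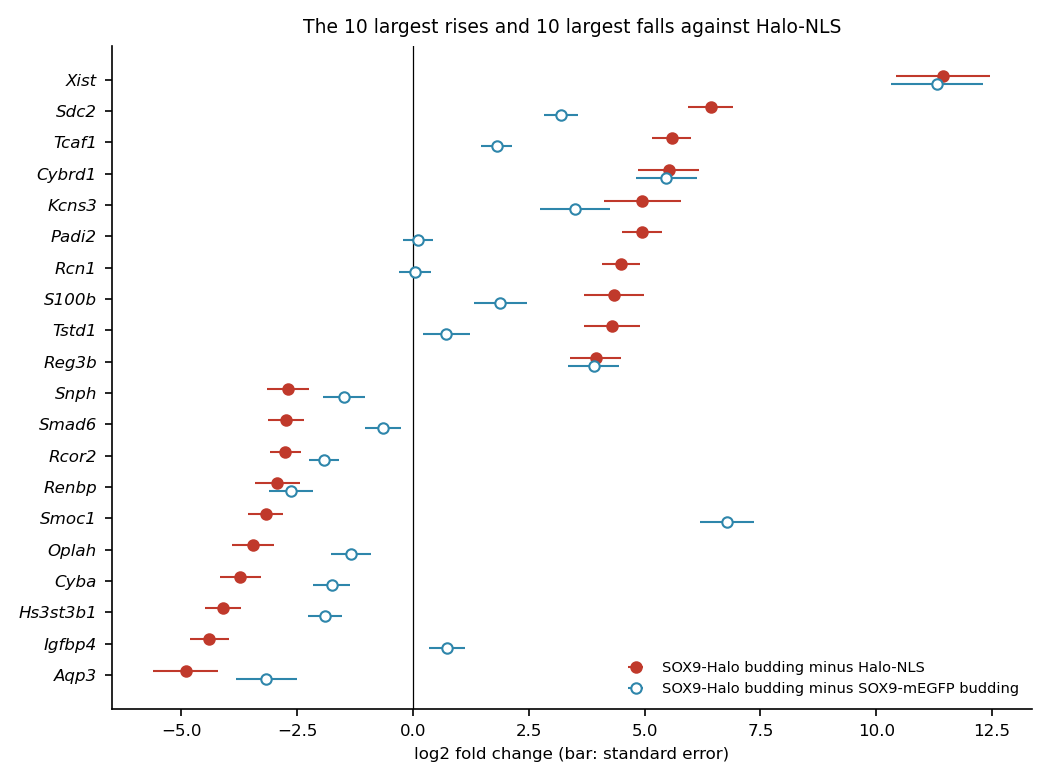
Log2 fold changes with standard errors of the 10 largest rises and 10 largest falls, against Halo-NLS (filled red) and against SOX9-mEGFP_budding (open blue). Xist, Cybrd1 and Reg3b had about the same positive difference from both lines, Padi2 and Rcn1 lay near 0 against SOX9-mEGFP_budding, and Smoc1 changed sign.

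Rnf130, Scube2 and Tstd1 were also called with the 6 compared libraries alone, each with an edgeR adjusted p of 0.0092. Rnf130, a RING-type ubiquitin ligase, had 69.3, 76.9 and 81.7 normalized reads in Halo-NLS and 918, 906 and 703 in SOX9-Halo_budding (3.47, SE 0.21, adjusted p = 9.0e-07), with a smaller standard error than any of the 10 largest rises. Scube2, a secreted protein that helps release lipid-modified Hedgehog ligands, had 5.2, 2.3 and 1.3 reads against 155, 151 and 183 (5.76, SE 0.63), and Tstd1, a sulfurtransferase-like protein, had 20.9, 17.2 and 22.6 against 385, 344 and 471 (4.30, SE 0.60). Rnf130 and Scube2 were chosen after their values were seen. The other 2 genes called with 6 libraries were Gm49980 and a gene with no symbol, ENSMUSG00000134779.

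The antibacterial REG lectins Reg3b and Reg3g, which lie close together on chromosome 6, both rose. Reg3b had 68.0, 64.3 and 106 normalized reads in Halo-NLS and 1162, 598 and 1898 in SOX9-Halo_budding (3.94, SE 0.56, adjusted p = 8.6e-04). Reg3g had 376, 255 and 136 against 2229, 2313 and 3951 (3.47, SE 0.57, adjusted p = 0.002), and its call was lost without Halo-NLS library 2 or 3 or SOX9-Halo_budding library 3 (adjusted p up to 0.012). The SOX9-mEGFP line separated this pair. There Reg3b stayed at 104, 96.6 and 44.4 reads, lower than in SOX9-Halo_budding by a called difference (3.90, adjusted p = 0.0018), while Reg3g had 4159, 1793 and 595, a difference that was not called (0.38).

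The promoters of these 5 genes (GRCm39, from 250 bases before to 50 bases from the start of the canonical GENCODE M39 transcript, written 5′ to 3′ on the strand of the gene) show the sequence that the changed genes start from, with matches to the SOX core motif AACAAT and the TCF and LEF motif ATCAAAG on either strand in capitals.
Reg3b, chr6:78347594-78347893, plus strand: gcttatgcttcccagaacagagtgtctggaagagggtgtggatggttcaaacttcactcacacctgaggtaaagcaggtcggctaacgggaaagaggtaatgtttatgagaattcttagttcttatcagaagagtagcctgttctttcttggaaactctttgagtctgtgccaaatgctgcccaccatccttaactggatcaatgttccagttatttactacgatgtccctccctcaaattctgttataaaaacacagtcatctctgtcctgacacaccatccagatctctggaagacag
Reg3g, chr6:78445807-78446106, minus strand: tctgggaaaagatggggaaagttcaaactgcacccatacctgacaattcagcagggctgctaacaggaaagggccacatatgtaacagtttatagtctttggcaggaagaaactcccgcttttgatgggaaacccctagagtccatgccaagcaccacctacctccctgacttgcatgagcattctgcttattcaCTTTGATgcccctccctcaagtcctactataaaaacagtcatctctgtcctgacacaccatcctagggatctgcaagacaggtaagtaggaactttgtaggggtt
Rnf130, chr11:49915871-49916170, plus strand: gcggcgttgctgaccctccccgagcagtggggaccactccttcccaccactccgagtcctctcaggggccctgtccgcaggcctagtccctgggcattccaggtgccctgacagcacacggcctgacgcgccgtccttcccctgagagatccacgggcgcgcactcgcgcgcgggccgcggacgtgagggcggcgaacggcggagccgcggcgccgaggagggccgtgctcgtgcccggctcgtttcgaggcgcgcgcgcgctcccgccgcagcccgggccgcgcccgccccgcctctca
Scube2, chr7:109464843-109465142, minus strand: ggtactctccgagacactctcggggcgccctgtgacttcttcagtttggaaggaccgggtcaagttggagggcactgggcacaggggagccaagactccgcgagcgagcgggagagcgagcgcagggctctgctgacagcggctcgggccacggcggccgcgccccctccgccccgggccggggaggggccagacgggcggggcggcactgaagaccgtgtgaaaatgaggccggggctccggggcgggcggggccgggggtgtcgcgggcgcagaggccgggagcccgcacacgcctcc
Tstd1, chr1:171246285-171246584, plus strand: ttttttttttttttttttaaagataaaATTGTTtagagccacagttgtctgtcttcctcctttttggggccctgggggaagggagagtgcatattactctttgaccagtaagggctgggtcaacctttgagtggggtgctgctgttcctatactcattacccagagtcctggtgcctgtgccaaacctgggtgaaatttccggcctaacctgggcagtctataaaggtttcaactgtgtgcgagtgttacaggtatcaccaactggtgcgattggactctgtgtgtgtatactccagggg
The windows of Reg3b and Reg3g both hold the run tataaaa and are 44% and 47.3% GC, whereas those of Rnf130 and Scube2 are GC-rich at 76% and 74.3%. Tstd1 holds 1 SOX core match and Reg3g 1 TCF and LEF match. Over the tested genes with an annotated start, AACAAT or its reverse complement ATTGTT stood in 8.13% of 17552 such windows. It stood in 44 of 438 of the called higher genes and in 23 of 221 of the called lower genes (10.4%). For ATCAAAG or its reverse complement CTTTGAT, these values were 2.99%, 12 and 7. A match is a run of letters and does not show binding, and sites further away were not searched.

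The Wnt pathway genes were described by their role, and the roles were not tested against each other. Of 16 receptors and co-receptors tested, edgeR called 5 higher and 0 lower, and DESeq2 7 and 0. Over all 17560 genes tested, edgeR called 438 higher and 221 lower, and DESeq2 1176 and 426. The median log2 fold change of the 16 was 0.872 (0.89 without the GC and length trends), against 0.0094 over the genes tested. Fzd5, the most abundant Frizzled gene tested in these libraries, had 2159, 2529 and 1223 normalized reads in Halo-NLS and 3500.5, 5129.8 and 4480.0 in SOX9-Halo_budding (1.15, SE 0.23, adjusted p = 0.0069). Lgr4, an R-spondin receptor, had 1676, 796 and 607 against 2564, 2593 and 3648 (1.52, SE 0.30, adjusted p = 0.0065). In both, each SOX9-Halo library was above each control library. Fzd6 and Fzd8 rose by 1.25 (SE 0.26) and 2.05 (SE 0.41), and Fzd3 went from 1.3, 0.0 and 1.3 reads to 52.5, 47.7 and 69.3. The co-receptors did not move together, with Lrp6 at 1.93 (SE 0.44, adjusted p = 0.012) and Lrp5 at -0.99 (SE 0.29, adjusted p = 0.03), neither of them called. Of the 5 edgeR calls, Fzd3 alone was kept without each library. The others were lost without 3 or 4 of the 6, including Halo-NLS library 3, with adjusted p up to 0.037 for Fzd5, 0.034 for Fzd6, 0.018 for Fzd8 and 0.044 for Lgr4, and Fzd8 and Fzd3 were the ones called without the GC and length trends, beside Fzd7, which was called in that fit and was chosen after its value was seen.

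Ligand-side genes were split. Of 12 Wnt ligands, R-spondins and genes of their secretion, 1 was higher and 1 lower (median -1.07). Several members were near the floor, among them Wnt7b, Wnt7a and Wnt10a with averages of 0.72, 1.46 and 1.81 normalized reads. The sum over the list went the other way, at 40.5 to 48.1 CPM in Halo-NLS and 54.9 to 57 in SOX9-Halo_budding, with Wls as its most abundant tested member. Wls, the carrier that takes Wnt proteins to the cell surface, had 739.7, 468 and 548 normalized reads against 1543, 1345 and 1539.5 (1.33, SE 0.21, adjusted p = 0.0016), and Porcn, the enzyme that adds their lipid, had 246, 348 and 381 against 109.8, 177 and 134 (-1.21, SE 0.25, adjusted p = 0.0075). Wnt3, the Paneth cell ligand, was at -0.94 (SE 0.36, adjusted p = 0.082). Wls lost its call without Halo-NLS library 2 (adjusted p = 0.012) and Porcn in 4 of the 6 fits with 1 library less (adjusted p up to 0.038), and neither was called without the GC and length trends.

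Downstream, 1 of 20 Wnt target and feedback genes was higher by edgeR, Cd44, and 1 lower, Mmp7, with a median of -0.374. DESeq2 called 3 of the 20 higher and 2 lower. Cd44, a hyaluronan receptor and Wnt target, had 226, 186 and 184 normalized reads in Halo-NLS and 496, 830.0 and 2254 in SOX9-Halo_budding (2.59, SE 0.48, adjusted p = 0.0042), the last library well above the others. Axin2, a negative regulator and common readout of the pathway, had 1141, 1629.5 and 2157 against 768, 974 and 2466, and these groups overlapped (-0.23, SE 0.53, adjusted p = 0.77; its sign turned with library-size scaling or without the trends). Among 25 crypt base stem cell markers, Slc12a2 and Cd44 were higher by edgeR and Igfbp4 lower (median -0.142, or 0.165 with library-size scaling). DESeq2 called 6 of the 25 higher and 2 lower, against 1176 and 426 of all 17560 genes tested. Slc12a2, the basolateral Na-K-Cl cotransporter of crypts, had 1979, 523 and 1081 against 11657, 6327 and 20308 (3.42, SE 0.62, adjusted p = 0.0036). Slc12a2 and Cd44 each lost their call in 3 fits with 1 library less (Halo-NLS 2, Halo-NLS 3 and SOX9-Halo_budding 3, adjusted p up to 0.021 and 0.022), and Cd44 also without the GC and length trends (1.68, adjusted p = 0.015). In that fit 1 stem cell marker was higher and 3 lower, and 0 Wnt target genes were higher and 2 lower.

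The best known stem cell markers did not pass in the edgeR fit on 15 libraries and did not point the same way. Lgr5, whose locus carries the reporter in LGR5::DTR-EGFP mice, had 379, 372 and 411 normalized reads in Halo-NLS and 787, 1822 and 1375 in SOX9-Halo_budding, groups that did not overlap (1.78, SE 0.54, adjusted p = 0.034). Ascl2 had 208, 298 and 861 against 97.9, 114 and 192, also without overlap and in the other direction (-1.76, SE 0.57, adjusted p = 0.044). Olfm4 varied more within each group than between the groups, at 920.1, 484 and 3726 against 1310.3, 363 and 4592 (0.29, SE 1.18, adjusted p = 0.87). Of 50 cell cycle and DNA replication genes, 1 was called. Ccnd2, cyclin D2, rose by 1.29 (SE 0.19, adjusted p = 9.6e-04) in the fit as made and in each fit with 1 library less, but not without the GC and length trends (0.58, adjusted p = 0.025). Mki67 ranged from 578 to 2258 in Halo-NLS and from 1081 to 8451 in SOX9-Halo_budding (1.92, SE 0.83, adjusted p = 0.11).

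**Figure D3:**
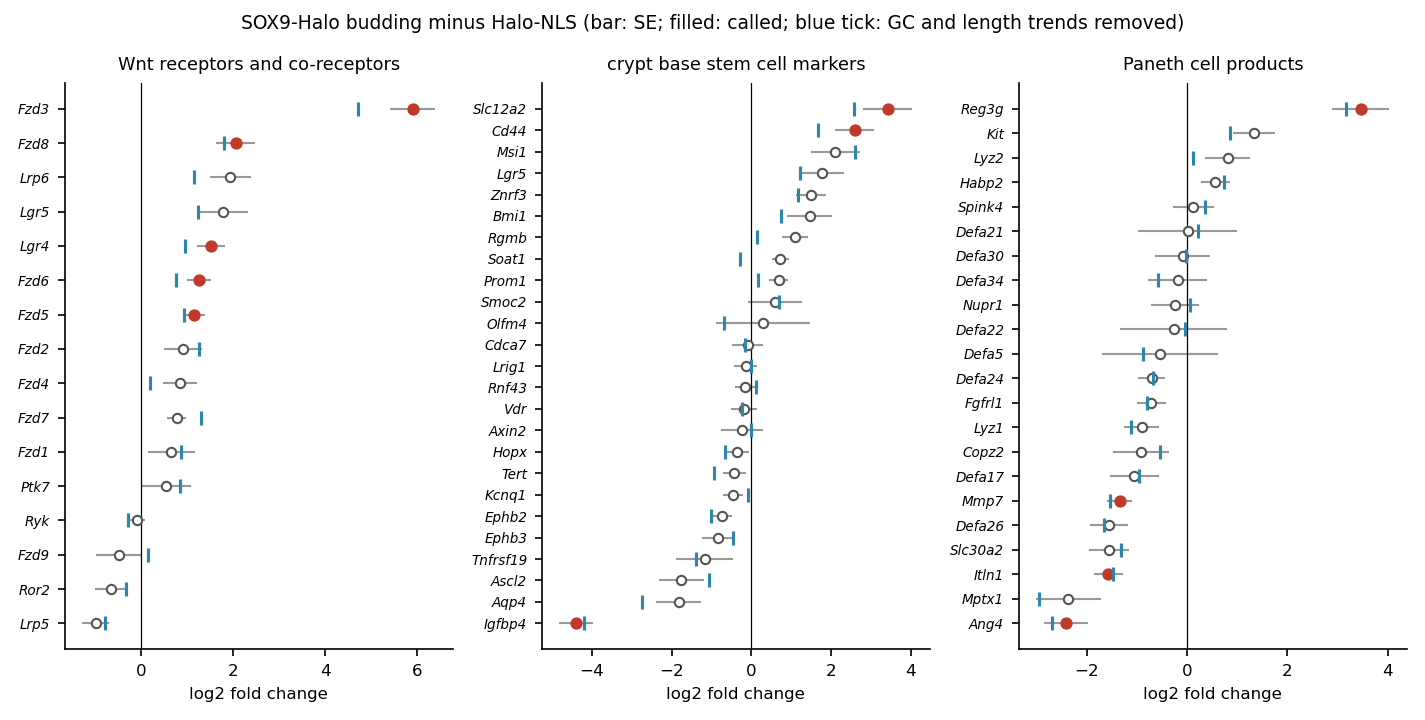
Log2 fold changes with standard errors of the tested members of 3 lists, Wnt receptors and co-receptors, crypt base stem cell markers and Paneth cell products (filled red, called; open, not called; blue tick, without the GC and length trends). Among the receptors, 12 of 16 lay above 0 as fitted, while the stem cell markers and Paneth products spread to both sides.

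Beside Sox9, 2 more of 7 tested SOX family members were higher and 0 lower. Sox4, which is active in secretory progenitors, had 1098, 702 and 1639 normalized reads in Halo-NLS and 4893, 4092 and 5186 in SOX9-Halo_budding (2.04, SE 0.42, adjusted p = 0.0071). Sox6, a partner of SOX9 in cartilage, had 258, 141 and 91.8 against 619, 529 and 991 (2.13, SE 0.33, adjusted p = 0.0015). Sox4 lost its call in 4 fits with 1 library less (adjusted p up to 0.034) and was not called without the trends (adjusted p = 0.012), and Sox6 lost it in 2, without Halo-NLS 2 or SOX9-Halo_budding 3 (adjusted p up to 0.011). Of 5 tested cartilage genes known to be bound by SOX9, 0 were called by edgeR and 0 by DESeq2. An unadjusted edgeR p under 0.05 was found for 1 of them, and for 6579 of all 17560 genes.

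Paneth cell products went both ways. Of 22 tested, 1 was higher (Reg3g) and 3 lower, and the median was -0.621 (-0.626 without the trends). DESeq2 called 2 of them higher and 5 lower. Over all 17560 genes tested, edgeR called 438 higher and 221 lower, and DESeq2 1176 and 426. Itln1, a lectin that binds microbial sugars, had 19493, 16919.9 and 16652 normalized reads in Halo-NLS and 6287, 7171 and 4485 in SOX9-Halo_budding (-1.56, SE 0.29, adjusted p = 0.0044). Ang4, an antimicrobial ribonuclease, had 4250.2, 2637 and 2006 against 671, 747 and 247 (-2.42, SE 0.44, adjusted p = 0.0037), and Mmp7, which processes defensins, 571, 458 and 371 against 183, 237 and 131 (-1.34, SE 0.24, adjusted p = 0.0036). Each of the 3 was lower in each SOX9-Halo library than in any control library, and each stayed called without the GC and length trends. Lyz1, lysozyme, the most abundant product of these cells, had 27535, 22349 and 21589 against 14238, 13080.3 and 11016, also without overlap, but was not called (-0.90, SE 0.35, adjusted p = 0.082). In SOX9-mEGFP_budding, Mmp7 had 1224, 820.3 and 1230.3 reads, higher than in either other line, and the SOX9 lines differed (-2.57, adjusted p = 4.4e-05). Itln1 lost its call in 4 fits with 1 library less (adjusted p up to 0.032), and Ang4 and Mmp7 in 3 (0.02 and 0.026).

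Of 30 goblet cell products (median 0.145), DESeq2 called 6 higher and 0 lower, against 1176 and 426 of all 17560 genes tested. By edgeR, 0 were lower, against 221 of all, and 4 were higher, against 438 of all. They were Ccl9, a chemokine (1.52, SE 0.29), Creb3l4, a transcription factor of secretory cells (1.09, SE 0.23), and the neighbouring calcium-activated chloride channel regulators Clca3a1 (2.73, SE 0.51) and Clca3a2 (2.63, SE 0.57), which are close copies whose reads may be shared between them. Each lost its call in 3 to 5 fits with 1 library less (adjusted p up to 0.043), and Clca3a1 was the one called without the trends (adjusted p = 0.0097). Muc2, the main mucin of these cells, ranged from 618 to 20645 normalized reads in Halo-NLS and from 1355 to 18787 in SOX9-Halo_budding, so the 3 libraries of each group differed more than 10-fold among themselves. Of 40 enteroendocrine genes, 21 tuft cell markers and 19 brush-border enzymes, 0 were called by edgeR in the fit on 15 libraries, with medians of -0.0168, 0.567 and -0.0208, and 6, 5 and 7 had an unadjusted p under 0.05. Over all genes tested, 6579 of 17560 had such a p. Without the GC and length trends, edgeR called 1 brush-border enzyme lower. DESeq2 called 0 of the enteroendocrine genes, 2 of the tuft cell markers (both higher) and 2 higher and 2 lower of the brush-border enzymes. Its calls over all 17560 genes tested were 1176 higher and 426 lower. Library-size scaling turned the first and the third of these medians to 0.249 and 0.285. Chga (enteroendocrine) was at -0.65 (SE 0.57), Dclk1 (tuft) at 0.86 (SE 0.84), Alpi, intestinal alkaline phosphatase, at -1.41 (SE 0.46, adjusted p = 0.044) and Atoh1, the factor that commits cells to the secretory lineage, at 0.85 (SE 0.29, adjusted p = 0.051). The intestinal identity factor Cdx2 had 11483, 16398 and 16244 reads against 9122, 12535 and 8113 (-0.57, SE 0.24, adjusted p = 0.097).

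Of 31 BMP and TGF-beta pathway genes, edgeR called 4 lower and 0 higher, and DESeq2 called 4 lower and 2 higher. Without the GC and length trends, edgeR called 1 of them lower. Over all 17560 genes tested, edgeR called 221 lower and 438 higher as fitted, and DESeq2 426 and 1176. Id1 and Id3, inhibitors of basic helix-loop-helix factors and direct BMP targets, had 709.7, 744 and 769 and 294, 402 and 468 normalized reads in Halo-NLS and 358, 401 and 317 and 136, 144 and 192 in SOX9-Halo_budding (Id1 -1.05, SE 0.19, adjusted p = 0.0042; Id3 -1.30, SE 0.24, adjusted p = 0.0038). Smad6, the inhibitory SMAD that BMP induces, had 226, 322 and 228 against 35.0, 60.3 and 20.5 (-2.74, SE 0.39, adjusted p = 8.6e-04), and the ligand gene Bmp7 890.0, 1057 and 1688 against 381, 626 and 488 (-1.28, SE 0.28, adjusted p = 0.0097). The list's median did not follow them, at 0.12 as fitted and -0.334 without the trends. In SOX9-mEGFP_budding, Id1 had 726, 636 and 494 reads and Id3 306, 269 and 276, between or near the control values, while Smad6 was low at 69.2, 78.9 and 34.3. Smad6 stayed called in each alternative with 1 library less and without the trends. Id1, Id3 and Bmp7 lost their call in 4, 3 and 4 of the 6 fits (adjusted p up to 0.031, 0.02 and 0.043) and without the trends (adjusted p 0.013, 0.017 and 0.013).

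Psat1 and Psph, enzymes of serine synthesis from glycolytic intermediates, were called lower. Psat1 had 11815, 13248 and 15070.2 normalized reads in Halo-NLS and 3941, 3766 and 4622 in SOX9-Halo_budding (-1.70, SE 0.21, adjusted p = 3.4e-04), and Psph 1394, 1557 and 2043 against 527, 544 and 563 (-1.61, SE 0.24, adjusted p = 0.0013). Both were lower in each SOX9-Halo library than in any control library and were called in each fit with 1 library less and without the trends. Phgdh, the first enzyme of the route, had 7724, 9359 and 15647 against 5424, 5842 and 5683 and was not called (-0.95, SE 0.22, adjusted p = 0.014), and Shmt2, which passes the carbon of serine to folate, was at -1.17 (SE 0.25, adjusted p = 0.0087), a call lost in 5 of the 6 fits (adjusted p up to 0.036). Psat1, Psph and Shmt2 were the 3 called of 41 genes of the unfolded protein and integrated stress response, where 0 were higher (median -0.544). Psat1 lies on chromosome 19 and Psph on chromosome 5. Psph and Psat1 had 462, 490.1 and 575 and 6551, 6724 and 9884 reads in SOX9-mEGFP_budding.

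Of 84 cytoplasmic ribosomal protein genes, 55 were lower in each SOX9-Halo library than in any control library, with a median of -0.668 (-0.55 without the trends). Over all genes tested, 2621 of 17560 were lower without overlap in this way. Of the ribosomal genes, 0 were called lower by edgeR as fitted (4 without the trends, 1 by DESeq2). An unadjusted edgeR p under 0.05 was found for 67 of the 84, against 6579 of all 17560 genes. The 1 called member, Rps4l, had 0 counts in each Halo-NLS library and 190, 131 and 107 in those of SOX9-Halo_budding, at least 34.4-fold higher where 3 counts per library stand for 0. Its near-identical family member Rps4x could share reads with it. Of 84 nuclear genes of the respiratory chain, 43 were lower without overlap (median -0.519), and the 3 that were called, Cox8a (-1.15, SE 0.16), Ndufv1 (-1.29, SE 0.19) and Ndufs8 (-1.36, SE 0.20), lie on chromosome 19, which holds 6 of the 84. Each of the 3 lost its call without the GC and length trends (Cox8a -0.59, Ndufv1 -0.81, Ndufs8 -0.90), while the number of called members in that fit was also 3. Without chromosome 19 the list's median was -0.515. Glycolytic enzymes had a median of -0.884 over 22 genes (-0.603 without the trends), with 14 lower without overlap and Slc16a3, the lactate exporter (-1.85, SE 0.37, adjusted p = 0.0067), and Pgam1 (-1.38, SE 0.22, adjusted p = 0.0015, chromosome 19) called. Slc16a3 lost its call in 4 of the 6 fits with 1 library less (adjusted p up to 0.029). With library-size scaling the medians of these 3 lists were -0.379, -0.223 and -0.608, and the median over the genes tested was 0.31.

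In the absorptive lists single genes were called. Pnliprp2, a pancreatic lipase-related protein, had 4902, 6344 and 4387 normalized reads in Halo-NLS and 895, 1208 and 531 in SOX9-Halo_budding (-2.57, SE 0.39, adjusted p = 0.0013, chromosome 19) and was the 1 called of 33 fat absorption genes (median -0.603). Ppargc1a, the coactivator that drives mitochondrial gene programmes, was the 1 called of 38 fatty acid oxidation genes and rose, from 62.7, 39 and 30.2 to 531, 348 and 425 (3.31, SE 0.35, adjusted p = 1.1e-04), with 917, 598 and 406 in SOX9-mEGFP_budding. Espn, an actin bundler of microvilli, fell from 8328, 9349 and 7868 to 1899.8, 2506 and 1049 (-2.23, SE 0.35, adjusted p = 0.0016), and Pls3, another actin bundler, rose by 3.35 (SE 0.53). Espn lost its call without SOX9-Halo_budding library 3 (adjusted p = 0.01) and Pls3 without Halo-NLS library 2 (adjusted p = 0.012). Fabp1, an abundant fatty acid binding protein of enterocytes, had a log2 fold change of -0.46 (SE 0.68, adjusted p = 0.64) and was not called. Of 135 xenobiotic enzymes, 5 were lower and 2 higher, against 221 and 438 of all 17560 genes tested. DESeq2 called 9 lower and 4 higher, against 426 and 1176 of all. Gstp2 had 14378, 17367 and 16375 against 4207, 4919.6 and 4698 (-1.80, SE 0.17, adjusted p = 3.3e-05), and its close copy Gstp1, with which it may share reads, was at -1.23 (SE 0.18) and was not called without the trends. Both lie on chromosome 19, as does Fth1, the ferritin heavy chain (-1.32, SE 0.20, adjusted p = 0.0011).

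Markers of the fetal-like state that intestinal spheroids show were called in both directions, 2 higher and 3 lower of 36 by edgeR (median 0.038). DESeq2 called 3 of the 36 higher and 3 lower. Over all 17560 genes tested, edgeR called 438 higher and 221 lower, and DESeq2 1176 and 426. Cldn4, a tight junction claudin, had 6343, 8164 and 7351 normalized reads against 1689, 3194 and 1348 (-1.81, SE 0.37, adjusted p = 0.0069), and Krt7 and S100a6 were lower by -1.45 (SE 0.28) and -1.33 (SE 0.24). Higher were Ccnd2 and Il33, an alarmin cytokine at 5.2, 3.4 and 6.3 against 27.0, 13.6 and 57.6. Cldn4, Krt7, S100a6 and Il33 lost their call in 4, 4, 3 and 2 of the 6 fits with 1 library less (adjusted p up to 0.043, 0.027, 0.017 and 0.02). Cldn4, S100a6 and Ccnd2 also lost it without the GC and length trends, where 1 marker of the list was higher and 1 lower. Ly6a, Clu, Anxa1 and Tead4, widely used markers, were not called. Ly6a was at 1.41 (SE 0.52), Clu at 1.5 (SE 0.46, adjusted p = 0.037), Anxa1 at 1.57 (SE 0.54) and Tead4 at 1.06 (SE 0.40), and the groups overlapped for each of them. Of 30 YAP and TEAD genes, edgeR called 1 (Myof, higher), and DESeq2 called 3 higher and 1 lower. Myof, a membrane repair protein, had 34.0, 35.6 and 35.2 against 116, 148 and 230.2 (2.23, SE 0.27, adjusted p = 3.2e-04) and stayed called in each fit with 1 library less and without the trends.

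**Figure D4:**
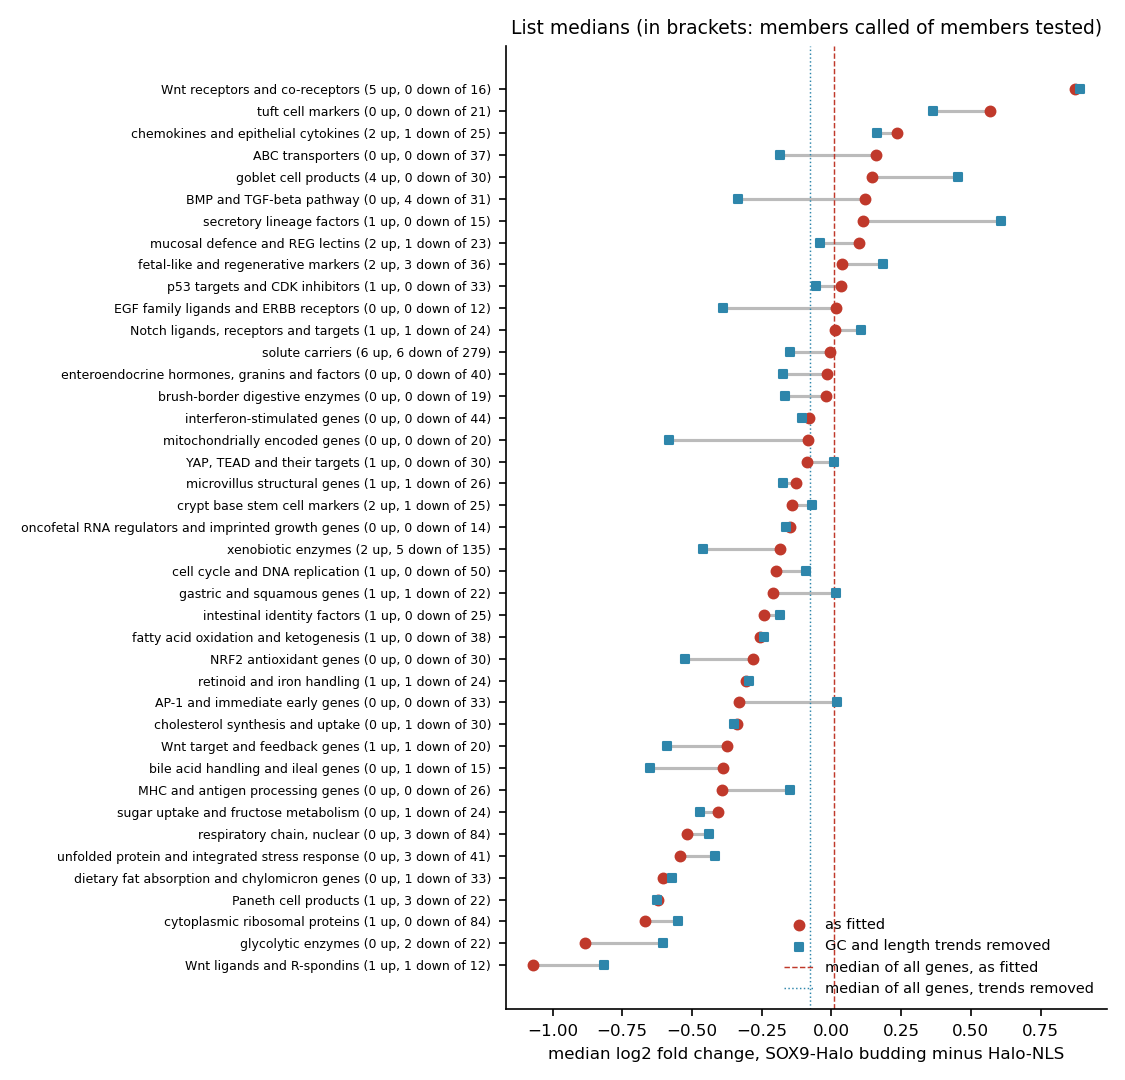
Median log2 fold change of 41 gene lists with at least 10 tested members, as fitted (red circles) and without the GC and length trends (blue squares), with the number of members called in brackets and the medians of all tested genes as vertical lines. Wnt receptors stood highest at 0.872 and kept that place without the trends, whereas the median of BMP and TGF-beta genes changed sign.

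Chromosome 19 stood apart from the other chromosomes. The median log2 fold change of its 656 tested genes was -0.623 (-0.642 without the GC and length trends), while the other autosomes ranged from -0.178 to 0.363 as fitted and from -0.13 to 0.0245 without the trends. It held 104 of the 221 called lower genes (47.1%) and 4 of the called higher genes, so that 15.9% of its tested genes were called lower, against 1.26% of all genes and 0.692% of those on other chromosomes. Without chromosome 19, 117 genes were lower and 434 higher. Relative to the mean of the 9 budding and control libraries, the median of 413 well expressed genes of the chromosome was 0.312, 0.482 and 0.373 in Halo-NLS, -0.412, -0.272 and -0.337 in SOX9-Halo_budding and -0.061, 0.04 and 0.133 in SOX9-mEGFP_budding, 3 levels that did not overlap. Along the chromosome, the medians of 7 consecutive windows of 10 Mb were -1.11, -0.55, -0.04, 0.08, -0.70, -0.24 and 0.41 as fitted. Without the trends they lay between -0.3 and -0.78 (the value nearest 0 in the last window, which holds 9 genes). In that fit each SOX9-Halo_budding library was below the 9-library mean in each window, although Halo-NLS library 3 was near or below it in 4 of them. Of the 39 genes called lower in each fit with 1 library less and also without the GC and length trends, 15 were on chromosome 19. Fth1, Pgam1, Gstp2, Psat1, Rcor2 and Pnliprp2 are among them, and DNA was not measured in these samples.

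**Figure D5:**
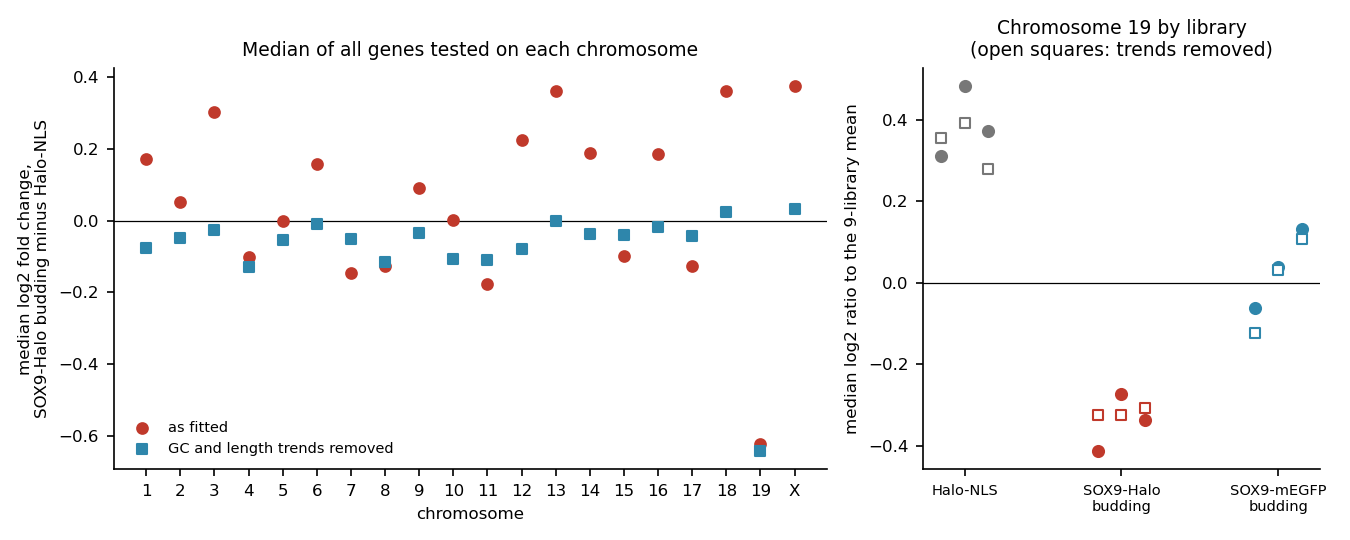
Left, median log2 fold change of the tested genes on each chromosome, as fitted (red circles) and without the GC and length trends (blue squares). Right, median log2 ratio of chromosome 19 genes to the 9-library mean in each library (filled, as fitted; open squares, without the trends), where the 3 groups formed 3 separate levels.

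Xist, the RNA that coats the inactive X chromosome, had the largest fitted rise of the called genes. It had 2, 1 and 4 counts in Halo-NLS and 12033, 1182 and 14811 in SOX9-Halo_budding, with library 2 of the latter well below the others (11.44, SE 1.01, adjusted p = 2.7e-05). In SOX9-mEGFP_budding it had 2, 0 and 8 counts. The Y-linked genes Ddx3y, Uty, Kdm5d and Eif2s3y had 0 counts in these 9 libraries, a total that allows up to 3 counts each. The median log2 fold change of 479 X-linked genes was 0.375 and fell to 0.0313 without the trends, with 22 genes higher and 3 lower. Of the X-linked genes that escape inactivation, Eif2s3x had 3077, 947 and 1269.6 normalized reads against 5655, 3923 and 5889.7 (1.55, SE 0.34, adjusted p = 0.0097), a call lost in 4 of the 6 fits with 1 library less (adjusted p up to 0.052) and without the GC and length trends (0.98). Of the others, Kdm6a was at 2.26 (SE 0.50, adjusted p = 0.0104), Ddx3x at 1.44 (SE 0.69, adjusted p = 0.14), Utp14a at 0.87 (SE 0.28, adjusted p = 0.045) and Kdm5c at -0.06 (SE 0.28, adjusted p = 0.89), none of them called. The part of the Xist difference between the lines in the other changes was not tested.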

How the data were processed

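Poly(A) RNA of each library was sequenced, and per the labels and the study's methods the authors trimmed reads with cutadapt 4.5, aligned them with STAR to mm39 and counted unique alignments per gene with HTSeq 2.0.2. The deposited values are raw counts per gene, without normalization, for 78298 genes in each of 15 libraries (5 conditions, 3 libraries each). Reads that HTSeq could not assign, 1.83% to 5.72% to no gene and 9.93% to 13.6% ambiguous in the 6 libraries, were left out. The study's methods call the replicates biological triplicates, each group being 1 line, so p-values measure the spread between these samples.

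Counts were analysed in R 4.3.3 with edgeR 4.0.16 (filterByExpr by condition, TMM scaling, quasi-likelihood test, Benjamini-Hochberg adjustment over 17560 genes). The 15 libraries were fitted together, so that the conditions shared 1 estimate of spread. Normalized counts are counts scaled to the mean effective library size. Calls needed an adjusted p no higher than 0.01, a log2 fold change of 1 or more in either direction and an average of 10 or more normalized counts. GC and length trends are smoothing splines with 5 degrees of freedom of each library's log2 ratio to the mean of the libraries, entered as offsets, an alternative chosen after seeing the data. DESeq2 1.42.0 was an alternative. Intervals and limits from counts cover counting error only.

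Named genes were Sox9, the 10 largest rises and 10 largest falls described in the text, up to 4 called members of each of 48 lists by abundance with the most abundant member not called, and a set of standard markers. Members and lists were chosen with earlier results of these data known, and other members of a list named beside them were chosen after their values were seen. A chosen gene may be left out of the text, and 1 is not reported here. Gene positions are those of GENCODE M39 on GRCm39.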

Additional observations from a re-analysis of the deposited data

Results flagged for a closer look

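Of 111 tested genes chosen for naming, 11 differed between the SOX9 lines when SOX9-Halo_budding was set against SOX9-mEGFP_budding directly (edgeR quasi-likelihood test, 15 libraries), which equals the difference of their effects against the shared Halo-NLS control. Higher in the SOX9-Halo line were Xist by 11.31 on the log2 scale (SE 0.99, adjusted p = 1.7e-05), Smoc1 by 6.78 (SE 0.58, adjusted p = 1.6e-05), Cybrd1 by 5.47 (SE 0.66, adjusted p = 4.2e-04), Reg3b by 3.90 (SE 0.55, adjusted p = 0.0018), Sdc2 by 3.20 (SE 0.37, adjusted p = 2.4e-04), S100a6 by 3.08 (SE 0.26, adjusted p = 1.6e-05), Fzd3 by 2.75 (SE 0.34, adjusted p = 5e-04) and Rnf130 by 1.46 (SE 0.19, adjusted p = 6.6e-04). Lower were Mmp7 by -2.57 (SE 0.25, adjusted p = 4.4e-05) and Rcor2 by -1.92 (SE 0.32, adjusted p = 0.0056). Rps4l had a fitted difference of 8.14 (SE 0.65, adjusted p = 4.5e-04) that depends on the prior count, since it had 428 counts in the SOX9-Halo line and 1 in the other, a ratio of 397 (95% interval 70.9 to 15700, counting error only). The lines also differ in passage, which cannot be told apart from the construct.

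S100a6 had 1509.5, 1369 and 1532 normalized reads in Halo-NLS, 432, 457 and 867 in SOX9-Halo_budding and 64.4, 59.2 and 83.3 in SOX9-mEGFP_budding, so the SOX9-Halo line stood between the others. Sdc2 had 25.5, 26 and 21.0 reads in SOX9-mEGFP_budding, also between the others. Groups of 3 libraries were not tested for outlying samples.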

How the results depend on the processing

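The counts of called genes (438 higher, 221 lower) depended on the setting, though 0 of the 659 called genes changed sign in any setting run. With the 6 libraries alone 5 were higher and 0 lower, with 9 libraries (no spheroids) 69 and 21, with DESeq2 1176 and 426, without a filter on low counts 1933 and 424, and with library sizes alone 1068 and 109. A log2 fold change of at least 2 left 203 and 46, an adjusted p of at most 0.05 gave 1541 and 530, and leaving out chromosome 19 left 117 lower. Leaving out 1 library gave 125 to 1986 higher and 60 to 384 lower, and without library 2 of both groups 157 and 115. Without the GC and length trends, 6 libraries gave 53 and 26. RLE scaling (416 and 225) and the GC trend alone (338 and 219) stayed within 1.5 times. The replicate numbers were not used as pairs in the main fit. Same-numbered libraries deviated together with r of 0.46, 0.80 and -0.022 over 11054 genes. For numbers 1 and 2 the same-numbered library gave the highest r. For number 3 it did not, since Halo-NLS library 3 reached at most 0.047 and SOX9-Halo_budding library 3 correlated best with Halo-NLS library 1 (0.38). The replicate block gave 570 and 306.

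The log2 fold change of Sox9 was 2.95 to 4.04 with 1 library left out, and missed the threshold with 6 libraries (3.56, adjusted p = 0.0579), with 9 (3.54, adjusted p = 0.0194), with 6 without the trends (3.24, adjusted p = 0.0379) and without library 2 of both groups (3.32, adjusted p = 0.0118). Of the list members, 77 were called, 0 with 6 libraries, 30 to 173 with 1 library left out and 40 without library 2 of both groups. The chromosome 19 median was -0.32 with library sizes alone. Against SOX9-mEGFP_budding, 11 named genes were called, 2 with the libraries of these lines alone, 7 with 9 libraries, 18 by DESeq2 and 23 without the filter.

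Olfm4 (main 0.29) was -0.76 without the GC trend, -0.69 without both trends and -0.77 without both in 6 libraries, and Axin2 (main -0.23) was 0.12 with library sizes alone, 0.12, 0.00090 and 0.036 under those trend settings. Hes1 was 0.11 with library sizes alone. With 1 library left out, Olfm4 ran from -0.96 to 1.57, Axin2 from -0.88 to 0.072, Hes1 from -0.39 to 0.047, Muc2 from -2.35 to 0.86 and Dclk1 from -0.089 to 1.34. The causes of these shifts were not tested.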

Other observations

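Smaller lists held single called genes in both directions. Of 24 Notch genes, Notch4, a receptor, was higher (1.61, SE 0.35, adjusted p = 0.0098) and the ligand gene Jag2 was lower (-1.5, SE 0.30, adjusted p = 0.0067), and the Notch target Hes1 had a log2 fold change of -0.18 (SE 0.22, adjusted p = 0.56). Of 279 solute carriers, 6 were higher and 6 lower (median -0.00388), against 438 and 221 of all 17560 genes tested. DESeq2 called 15 higher and 13 lower, against 1176 and 426 of all. Plk2, a kinase gene that p53 induces, was the 1 called of 33 p53 targets and inhibitors of cyclin-dependent kinases (1.39, SE 0.23, adjusted p = 0.0019). Of 22 gastric and squamous genes, Gkn3, a gastrokine, was higher (3.40, SE 0.62, adjusted p = 0.0038) and Atp4a, the gastric proton pump, lower (-1.48, SE 0.30, adjusted p = 0.0074). With 1 library left out, Notch4 and Atp4a each lost their call in 5 of 6 fits (adjusted p up to 0.035 and 0.038), Jag2 in 4 (0.041), Gkn3 in 2 (0.021) and Plk2 in 1 (0.012).

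Against SOX9-mEGFP_budding, chromosome 15 had the lowest median of any chromosome, -0.486 on the log2 scale, while its median against Halo-NLS was -0.0985. Chromosome 19 was at -0.317 in that contrast, and the other autosomes lay close to 0.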
